A study of Mus musculus with 6 samples.

Results

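Prg2-rich cells after CAF-1 depletion are single cells that were chosen by their count of Prg2, the gene of eosinophil major basic protein. In the libraries taken 48 and 96 h after induction, a cell was selected when it held at least 5 unique molecular identifiers (UMIs, each standing for 1 captured transcript) of Prg2. It was set against the cells of the same library with 0 Prg2 UMIs, called Prg2-zero cells here. The rule found 81 cells among the 1838 that passed quality filters in these libraries and the 5872 that passed in all 6 libraries. Of the 81, 22 came from 927 cells at 48 h and 59 from 911 cells at 96 h, and the comparison held 863 and 760 Prg2-zero cells. The remaining 42 and 92 cells held 1 to 4 Prg2 UMIs.

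The cells are granulocyte-macrophage progenitors from mouse bone marrow (labelled Lys-GFP-ER-HoxA9 cells, strain C57BI/6), held in self-renewal by HOXA9 fused to an estrogen receptor domain and carrying a GFP reporter driven by the lysozyme promoter. All CAF-1 OFF libraries were cultured with stem cell factor and 150 ng/ml beta-estradiol, and the 48 and 96 h cultures also received 500 µM IPTG, which induces a hairpin that targets Chaf1b, part of the CAF-1 complex that loads histones. The 0 h library of this arm had estradiol and no IPTG, and the HOXA9 OFF arm was cultured without estradiol for 48 or 96 h after its own 0 h library. The arms are separate clones, and the HOXA9 OFF clone carries a control vector with a spacer sequence in place of the hairpin. Each group is 1 library of sorted live cells, and no test between groups or between cells of a library was therefore made. Intervals are exact 95% intervals that cover counting error only.

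Eosinophils are granulocytes whose large granules hold a few very basic proteins. Major basic protein, from Prg2, and its homologue from Prg3 are made in quantity early in this lineage, together with eosinophil peroxidase (Epx) and the eosinophil-associated ribonucleases (Ear genes). Basophils and mast cells also transcribe some of these genes, and the factor GATA1 acts in the eosinophil, mast cell, erythroid and megakaryocyte lineages. CAF-1 places histones on newly copied DNA and is known for holding cell identity in place.

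The selected cells held most Prg2 UMIs, the count that the rule itself used to choose them. At 48 h the 22 Prg2-rich cells held 1453 of 1507 Prg2 UMIs (96.4%). At 96 h the 59 cells held 4615 of 4740 (97.4%). The share was alike in the other libraries, at 96.8% in CAF-1 OFF at 0 h. In HOXA9 OFF it was 97.5%, 98.4% and 96.9% at 0, 48 and 96 h. The lowest, median and highest Prg2 counts per selected cell were 5, 20 and 341 at 48 h and 5, 31 and 648 at 96 h. As a share of a cell's own UMIs, Prg2 ranged from 0.0611% to 6.32% at 48 h and from 0.0829% to 16.9% at 96 h. Of the selected cells 16 and 45 held at least 10 Prg2 UMIs, and 4 and 16 held at least 100. Just outside the threshold, 2 and 4 cells held 4 Prg2 UMIs, with 7 to 15 Prg3 UMIs at 48 h and 1 to 13 at 96 h. Just inside, 2 and 4 cells held 5, with 4 to 19 and 2 to 6 Prg3 UMIs.

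Prg2-rich cells were not deeper than the others. Their median was 5712.5 UMIs at 48 h against 5983 in Prg2-zero cells, and 5179 against 5983.5 at 96 h, with single cells between 523 and 9349 UMIs. The median share of mitochondrial UMIs was 5.54% against 5.43% at 48 h and 5.76% against 5.81% at 96 h. Scrublet, a caller of droplets that hold more than 1 cell, marked 1 Prg2-rich cell at each time. Among all kept cells 16 cell barcodes occurred in more than 1 library, and 0 of the 81 cells carried one of them. The targeted transcript, Chaf1b, had 0 UMIs in Prg2-rich cells at 48 h and 3 UMIs (9.46 CPM, the gene's UMIs over all UMIs of the summed cells on the usual scale) at 96 h, and 3.47 and 5.55 CPM in Prg2-zero cells. In the library at 0 h it was at 36.6 CPM in Prg2-zero cells. Genes that blood cells do not use (Alb, Ins1, Krt5 and 4 others) were at 0 UMIs in both kinds of cell.

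Prg2-rich cells were present before induction and took a larger share at 96 h. To compare shares at equal depth, every cell was thinned to 1300 UMIs and the threshold of 5 was applied again. This gave 5 of 633 cells (0.79%, interval 0.257% to 1.83%) at 0 h. At 48 h it gave 14 of 907 cells (1.54%, 0.846% to 2.58%), and at 96 h 37 of 902 (4.10%, 2.90% to 5.61%). The interval at 96 h lay above those at 0 and 48 h, and the intervals at 0 and 48 h overlapped. Each interval holds counting error within 1 library and no spread between libraries. Without thinning the shares were 1.08%, 2.37% and 6.48%. In HOXA9 OFF the thinned shares were 1.91% (0.876% to 3.59%) at 0 h, 20.1% (17.97% to 22.3%) at 48 h and 5.01% at 96 h. Without thinning they were 4.65%, 27.9% and 6.49%. The 0 h libraries of the arms thus differed without thinning, at 1.08% (0.436% to 2.22%) in CAF-1 OFF and 4.65% (2.94% to 6.96%) in HOXA9 OFF. Their intervals overlapped at equal depth. Shallower cells left out by the thinning numbered 14, 20 and 9 over the times of CAF-1 OFF. For HOXA9 OFF they numbered 1, 28 and 134.

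**Figure D1:**
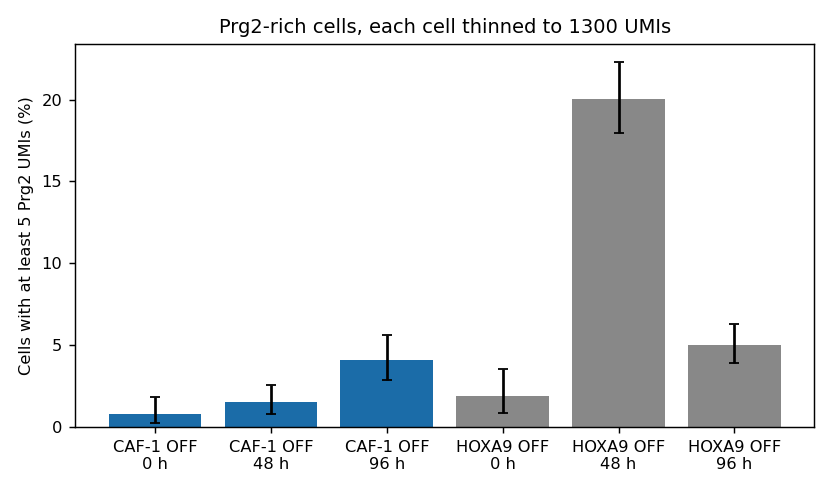
Share of kept cells with at least 5 Prg2 UMIs after thinning each cell to 1300 UMIs (y axis, percent) in the 6 libraries (x axis); error bars are exact 95% binomial intervals for counting error. The CAF-1 OFF bars (blue) go from 0.79% to 1.54% and 4.10%, and the highest bar is HOXA9 OFF at 48 h, at 20.1%.

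Prg3 had the highest log2 ratio of Prg2-rich to Prg2-zero cells among the genes named here other than Prg2 at both times, with 10 CPM added to each level. As a plain ratio of CPM, Prss34 and Il1rl1, with 19 and 4 UMIs, were further from 1 at 48 h. Prg3 encodes the second major basic protein, and it lies 4563 bases past the end of Prg2 on chromosome 2 (mouse build GRCm38.p6; Prg2 at chr2:84980461-84983632, Prg3 at chr2:84988196-84996559). Every one of the 22 cells at 48 h held Prg3, with a lowest count of 2 UMIs, a median of 22 and a highest of 95. At 96 h 57 of 59 held it, with a lowest count of 0, a median of 12 and a highest of 102. Prg2-zero cells had a median of 0 at both times, and 20.6% and 30.3% of them held any Prg3. The ranges overlap, since single Prg2-zero cells reached 31 and 28 Prg3 UMIs. At 1300 UMIs per cell, 95.5% of Prg2-rich cells and 7.23% of Prg2-zero cells held a Prg3 UMI at 48 h, and 84.5% and 9.57% at 96 h.

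Summed over cells, Prg3 stood at 4109.5 CPM in Prg2-rich cells against 73.3 CPM at 48 h, which is 56.1-fold higher (interval 49.1 to 64.1). At 96 h it was at 3759 against 118 CPM, 32.0-fold higher (28.8 to 35.5). Within the selected cells Prg3 went up with Prg2. In cells with 5 to 9, 10 to 49, 50 to 99 and 100 or more Prg2 UMIs, Prg3 was at 1299, 3383, 4093 and 9770 CPM at 48 h and at 1030, 2809, 3799 and 7604 CPM at 96 h. Spearman's rho between the CPM of both genes over these cells was 0.79 (22 cells) and 0.64 (59 cells), given as a description of cells that share a library and differ in depth. Cells with 1 to 4 Prg2 UMIs lay between, at 480 CPM of Prg3 at 48 h and 402 CPM at 96 h. Of Prg2-zero cells, 15 of 863 (1.74%) and 21 of 760 (2.76%) held at least 5 Prg3 UMIs.

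**Figure D2:**
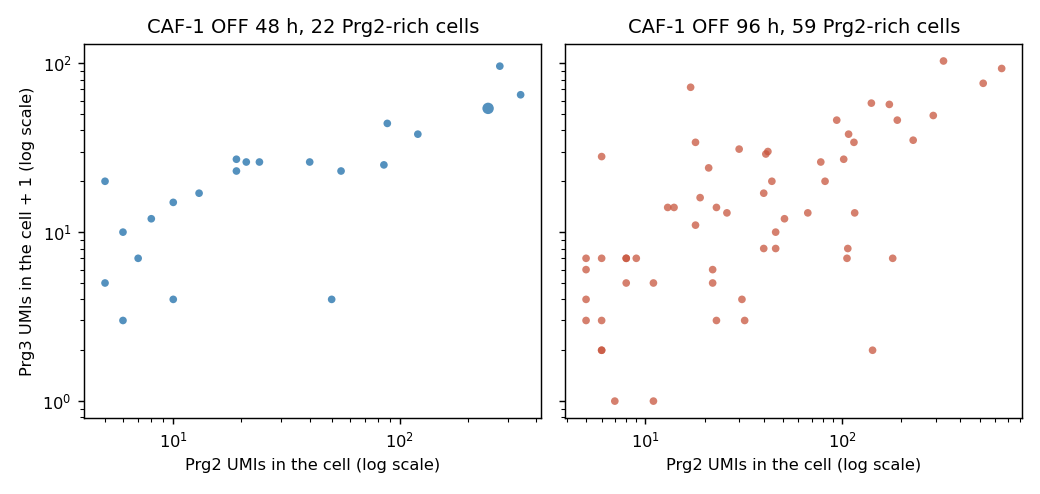
Prg3 UMIs plus 1 (y axis, log scale) against Prg2 UMIs (x axis, log scale) in each Prg2-rich cell, at 48 h (left, 22 cells) and 96 h (right, 59 cells); the larger point is the single cell with an Epx UMI. Prg3 runs from 2 to 95 UMIs at 48 h and from 0 to 102 at 96 h, and is higher where Prg2 is higher, with a wide spread.

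The other genes of the eosinophil programme were at or near 0. Epx, which codes for eosinophil peroxidase, had 1 UMI in 1 of the 81 cells. In the library at 0 h, 2 of the 7 Prg2-rich cells held 1 Epx UMI each. Ear1, Ear2, Ear6 and Ear10, the ribonuclease genes, had 0 UMIs at both times, as did Cd101. Ccr3, the eotaxin receptor, had 1 UMI at 96 h. Il5ra, the receptor for interleukin 5, had 2 UMIs at 48 h and 1 at 96 h. Alox15, a lipoxygenase, had 4 UMIs at each time, at 30.0 against 4.43 CPM at 48 h and 12.6 against 4.88 CPM at 96 h. Siglecf, a surface lectin of eosinophils, stood at 52.5 CPM (7 UMIs) against 20.6 at 48 h and at 28.4 CPM (9 UMIs) against 21.8 at 96 h. Since 1 UMI is worth 7.50 CPM in the summed cells at 48 h and 3.15 CPM at 96 h, low genes cannot be resolved below about that level. For a count of 0 the exact interval reaches 27.7 CPM at 48 h and 11.6 CPM at 96 h, and bounds on folds use a floor of 3 UMIs.

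Bases around the start of Prg3, of Prss34 (a basophil protease described below) and of Epx are shown because Prg3 and Prss34 were among the genes most raised in these cells while Epx was nearly absent. The sequences are from RefSeq, build GRCm38.p6, 250 bases each before the start of 1 transcript, 5′ to 3′ in the direction of the gene. That of Prg3 ends 19 bases inside the gene as given above. Capitals mark a GATA-type motif on either strand, searched as the letters AGATAA, as the letters AGATAG, as the letters TGATAA and as the letters TGATAG. Prg3 lies at chr2:84987965-84988214 (+ strand), Prss34 at chr17:25298144-25298393 (+ strand) and Epx at chr11:87875537-87875786 (− strand).
Prg3: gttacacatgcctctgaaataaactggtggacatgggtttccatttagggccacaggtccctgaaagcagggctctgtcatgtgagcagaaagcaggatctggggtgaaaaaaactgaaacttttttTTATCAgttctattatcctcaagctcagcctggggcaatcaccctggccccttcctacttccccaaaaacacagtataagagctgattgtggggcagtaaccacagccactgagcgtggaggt
Prss34: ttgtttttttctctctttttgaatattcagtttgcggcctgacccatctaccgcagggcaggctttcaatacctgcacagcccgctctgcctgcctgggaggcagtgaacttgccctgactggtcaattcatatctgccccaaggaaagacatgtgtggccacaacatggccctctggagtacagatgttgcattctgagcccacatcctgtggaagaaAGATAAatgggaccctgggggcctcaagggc
Epx: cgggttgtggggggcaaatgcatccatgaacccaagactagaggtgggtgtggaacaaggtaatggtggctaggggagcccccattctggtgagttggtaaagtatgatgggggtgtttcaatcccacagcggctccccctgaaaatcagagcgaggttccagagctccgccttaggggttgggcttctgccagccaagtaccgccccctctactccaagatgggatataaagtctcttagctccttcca
Prg3 holds 1 match, 117 bases before the end of the window and 98 before the gene's first base, Prss34 holds 1, 25 bases before its start, and Epx holds 0. A match lies in these 250 bases in 26.5% of all 32851 RefSeq promoters. Of the 15 genes most raised by the size rule, 13 have an entry, and 3 of the 13 hold a match (Prg3, Prss34 and Hdc, whose entry begins from a start inside the gene). This share is not above that of all promoters. Gm15915 and Gata1, ranked 2 and 4 of the 15, hold 0 matches, so the sequences shown do not stand for the set.

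Across the genome, genes were compared by size alone, as a log2 ratio of CPM after adding 10 CPM to both sums, which understates the change of low genes. Genes entered when the 4 sums averaged 20 CPM or more, and Prg2 was left out. A gene could so enter through 1 kind of cell alone, and was then bound to differ in that direction. Gm15915, Prss34 and Gata1 entered through Prg2-rich cells alone. In Prg2-zero cells they were at 2.70, 0 and 3.28 CPM at 48 h and 2.44, 3.55 and 8.21 CPM at 96 h. Of the 4686 genes that entered, 127 were at least 2-fold higher in Prg2-rich cells at 48 h (2.71%) and 30 at 96 h (0.64%). At least 2-fold lower were 234 at 48 h (4.99%) and 91 at 96 h (1.94%). In both libraries 23 genes were higher (0.491%) and 15 lower (0.32%). The 23 are 18.1% of those higher at 48 h and 76.7% of those higher at 96 h, and the 15 are 6.41% and 16.5% of those lower. Most of the genes lower at 48 h rest on very few transcripts, since 191 of the 234 had at most 3 UMIs in the 22 cells, as had 38 of the 91 at 96 h. The median log2 ratio over all tested genes was −0.04 and −0.07. On this scale, of the 11 listed eosinophil genes other than Prg2, 4 were at least 2-fold higher at 48 h (Prg3, Siglecf, Il5ra and Alox15) and Prg3 alone at 96 h, with 0 lower. Of these 11, only Prg3 and Siglecf entered the 4686. Il5ra and Alox15 lay below the minimum level, with 2 and 4 UMIs at 48 h. The interval of Siglecf's fold at 48 h held 1 (0.999 to 5.43). Counts of list genes past 2-fold use this scale and include genes below the minimum level. They are therefore not directly comparable with the shares over the 4686 genes. Folds given for single genes are plain ratios of CPM.

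**Figure D3:**
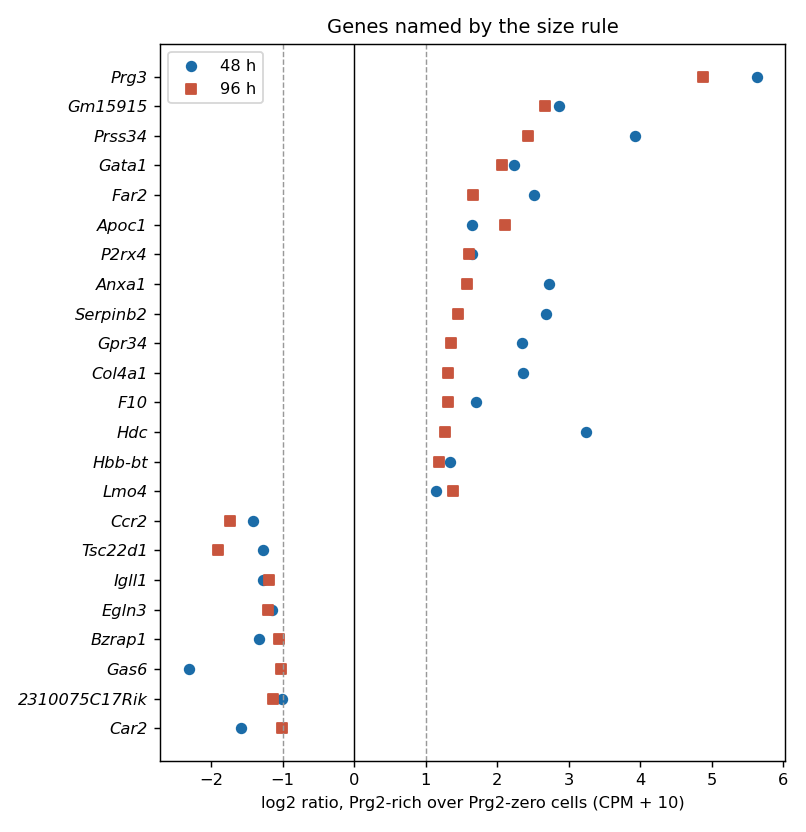
Log2 ratio of Prg2-rich over Prg2-zero cells (x axis, CPM plus 10) for the 15 genes most raised and the 8 lowered by the size rule, at 48 h (blue circles) and 96 h (red squares); dashed lines mark 2-fold. Prg3 stands apart at 5.63 and 4.88, and the other raised genes lie between 1.15 and 3.93.

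Basophil and mast cell genes were in part higher and in part at 0 in these cells. Hdc, which makes histamine, was at 202 against 12.5 CPM at 48 h (16.2-fold, 9.91 to 25.7) and at 59.9 against 18.9 CPM at 96 h (3.18-fold, 1.82 to 5.27). Its lowest, median and highest counts per Prg2-rich cell were 0, 1 and 4 UMIs at 48 h and 0, 0 and 2 at 96 h, so that it was held by 13 of 22 and 14 of 59 cells. Prss34, a basophil serine protease, had 19 UMIs at 48 h against 0 in Prg2-zero cells, at least 246-fold higher, but 16 of the 19 came from 1 cell. Without that cell its log2 ratio went from 3.93 to 1.74. At 96 h its 20 UMIs lay in 8 cells, with at most 4 in 1 cell, at 63.1 against 3.55 CPM (17.8-fold, 8.74 to 36.7).

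Cpa3, the mast cell carboxypeptidase, had lowest, median and highest counts of 0, 15 and 40 UMIs per Prg2-rich cell at 48 h and 0, 18 and 89 at 96 h, against medians of 4 and 15 in Prg2-zero cells. It was 2.42-fold higher at 48 h (2.16 to 2.71) and 1.58-fold at 96 h (1.49 to 1.67). Lmo4, a transcriptional cofactor on the same list, was 2.40-fold and 2.80-fold higher. Il1rl1, the receptor for interleukin 33, had 4 UMIs at each time and almost none in Prg2-zero cells (0.193 and 0.888 CPM). Mcpt8, another basophil protease, was at 435 against 372 CPM at 48 h and 801 against 1187 CPM at 96 h. Fcer1a, Cma1, Mcpt4, Tpsb2, Tpsab1, Cyp11a1, Hpgds and Mitf had 0 UMIs in Prg2-rich cells. Of the 16 genes on the list 12 had a UMI in either kind of cell, 4 were at least 2-fold higher at 48 h and 3 at 96 h, and 0 were lower past that size. The list's median log2 ratio was 0.11 and 0.18.

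Gata1 had the highest log2 ratio of the fate factors at both times. It was at 52.5 against 3.28 CPM at 48 h (16.0-fold, 5.62 to 40.6) and at 66.2 against 8.21 CPM at 96 h (8.06-fold, 4.48 to 14.1). These values rest on 7 and 21 UMIs, found in 6 of 22 and 16 of 59 cells, with at most 3 in a cell, against 1.74% and 4.61% of Prg2-zero cells. At 1300 UMIs per cell these few UMIs were nearly all lost, and the shares were 0 of 22 against 1 of 844 cells at 48 h and 1 of 58 (1.72%) against 10 of 752 (1.33%) at 96 h, so that no difference was detectable at that depth. Its relative Gata2, a factor of stem cells and mast cells, was at 14.998 against 39.9 CPM (2 UMIs) and 25.2 against 47.3 CPM (8 UMIs). Cebpe, a factor of granule gene transcription in neutrophils and eosinophils, had lowest, median and highest counts of 2, 7 and 20 UMIs at 48 h and 0, 6 and 21 at 96 h. It was 2.92-fold higher at 48 h (2.50 to 3.38) and 1.54-fold at 96 h (1.38 to 1.71).

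Spi1, the gene of PU.1, was 1.74-fold and 1.56-fold higher. Trib1, a pseudokinase that acts on C/EBP proteins, was at 14.998 against 3.47 CPM (2 UMIs) and at 28.4 against 5.33 CPM (9 UMIs). Cebpa, the earlier C/EBP factor, stood at 37.5 against 68.1 CPM and 22.1 against 70.1 CPM, the second 3.18-fold lower (1.52 to 7.97). Id2, an inhibitor of basic helix-loop-helix factors, had 0 UMIs against 49.2 CPM at 48 h and 3 UMIs (9.46 CPM) against 61.3 CPM at 96 h. Of the 17 fate factors 2 were at least 2-fold higher at each time, and 2 and 3 were lower.

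Other genes named by the size rule belonged to several roles. Anxa1, a phospholipid-binding protein of myeloid cells, had a lowest, median and highest count of 0, 12.5 and 84 UMIs at 48 h and 0, 13 and 105 at 96 h, against medians of 1 and 3 in Prg2-zero cells. It was 6.73-fold higher at 48 h (6.04 to 7.48) and 2.99-fold at 96 h (2.78 to 3.21). Serpinb2, a serine protease inhibitor, was 9.09-fold and 2.92-fold higher. Far2, an enzyme that makes fatty alcohols, was 9.06-fold and 4.10-fold higher, and Apoc1, an apolipoprotein, 5.24-fold and 5.68-fold.

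P2rx4, an ATP-gated ion channel, was 4.19-fold and 3.86-fold higher. F10, clotting factor X, was 3.93-fold and 2.83-fold higher. Gpr34, a lipid receptor, and Col4a1, a basement membrane collagen, rest on 7 and 11 UMIs at 48 h and on 21 and 17 at 96 h. Hbb-bt, an adult beta globin with a near-identical copy (Hbb-bs) that may share its reads, had 8 and 17 UMIs, of which 5 and 9 were in 1 cell. With a limit of 5% on mitochondrial UMIs, which left 6 and 14 Prg2-rich cells, the log2 ratios of Col4a1 at 48 h (−0.76) and of Gpr34 (−0.45) and Hbb-bt (−0.31) at 96 h turned negative. Gm15915, a gene without a known product, was at 82.5 against 2.70 CPM and 69.4 against 2.44 CPM.

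The genes lower at both times included Ccr2, the monocyte chemokine receptor. It was at 112 against 316 CPM at 48 h (2.81-fold lower, 1.70 to 5.03) and at 56.8 against 212 CPM at 96 h (3.73-fold, 2.35 to 6.33). At equal depth 4.55% of Prg2-rich and 30.6% of Prg2-zero cells held a Ccr2 UMI at 48 h, and 5.17% and 21.1% at 96 h. Igll1, the surrogate light chain gene that these progenitors also transcribe, was 2.49-fold and 2.40-fold lower. Car2, carbonic anhydrase 2, was 3.28-fold and 2.08-fold lower. Tsc22d1, Egln3, Bzrap1, Gas6 and 2310075C17Rik completed the set, at between 2 and 14 UMIs each in Prg2-rich cells.

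Most genes of the progenitor state had lower values in Prg2-rich cells at 48 h. Of the 10 listed, 9 lay below 0 at 48 h and 6 at 96 h, with median log2 ratios of −0.73 and −0.16. Of all tested genes 54.2% and 58.6% lay below 0. Flt3, a receptor of early progenitors, was at 14.998 against 101 CPM at 48 h (2 UMIs) and 31.5 against 66.4 CPM at 96 h (10 UMIs). Kit, the receptor for stem cell factor, was at 30.0 against 76.3 and 28.4 against 57.7 CPM. Cd34, a progenitor surface antigen, was at 525 against 749 and 467 against 724 CPM. Myb, a factor of cycling progenitors, was 1.45-fold higher at 48 h (1.09 to 1.90) and at 293 against 263 CPM at 96 h. Of the 10 progenitor genes 4 were at least 2-fold lower at 48 h and 0 at 96 h. On the monocyte list Ccr2 alone passed 2-fold, and several members had 0 UMIs in Prg2-rich cells and few in Prg2-zero cells.

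Prg2-rich cells also held the megakaryocyte and neutrophil transcripts that were abundant in the other CAF-1 OFF cells. Pf4, a platelet chemokine of megakaryocytes, had a lowest, median and highest count of 0, 2 and 15 UMIs in Prg2-rich cells at 48 h and 0, 13 and 65 at 96 h, against medians of 1 and 12 in Prg2-zero cells. It was at 615 against 403 CPM at 48 h and 2826 against 2436 CPM at 96 h. Elane, the gene of neutrophil elastase, was at 1319.8 against 884 CPM and at 1337 against 1374 CPM. Slpi, an inhibitor of that protease, was at 1755 against 1993 CPM and at 3109.5 against 4422 CPM. Mpo, the neutrophil peroxidase, was at 1642 against 1922 and 1697 against 2457 CPM.

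Single Prg2-rich cells held genes of several lineages at once. At 48 h 17 of 22 (77.3%, 54.6% to 92.2%) held UMIs of Pf4, Elane and Prg3, and at 96 h 45 of 59 (76.3%, 63.4% to 86.4%). In Prg2-zero cells 13.8% and 26.1% held UMIs of Pf4, Elane and Prg3. Both Pf4 and Elane, whatever the Prg3 count, were held by 77.3% and 79.7% of Prg2-rich cells. The shares of Prg2-zero cells with both were 43.2% and 83.3%. Free RNA can place single UMIs in cells that do not transcribe a gene, and its part here was not tested. In Prg2-rich cells of HOXA9 OFF at 48 h, 5 of 392 held a Pf4 UMI, each 1 UMI.

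Of the 11 primary granule genes, which code for the first granule set of neutrophils, 1 was at least 2-fold higher at 48 h (Cebpe, kept on this list too) and 0 at 96 h, with 0 lower. Their summed level was 1.20-fold higher (1.15 to 1.26) and 1.01-fold (0.98 to 1.04). Several late granulocyte genes were at 0. Ltf, Ngp, Ly6g and Retnlg had 0 UMIs in Prg2-rich cells at both times, and S100a8 had 0 and 4. They were also rare in the far more numerous Prg2-zero cells. There Ltf had 0 and 0 UMIs, Ngp 1 and 1, Ly6g 1 and 0, Retnlg 1 and 22, and S100a8 77 and 103. Mmp8, a collagenase of neutrophils, was at 1349.8 against 553 CPM and 1142 against 713 CPM. Of 10 megakaryocyte genes, Itga2b, an integrin of platelets and mast cells, passed 2-fold at 48 h alone, at 67.5 against 11.6 CPM, and was at 114 against 68.4 CPM at 96 h. Gp9, a platelet glycoprotein, was 2.11-fold and 1.78-fold higher. The erythroid list held 3 higher and 2 lower genes at 48 h and 2 and 2 at 96 h, and the higher ones included Gata1 and Hbb-bt. Lymphoid genes summed to 44.99 against 97.2 CPM at 48 h (6 UMIs) and 94.6 against 96.1 CPM at 96 h.

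**Figure D4:**
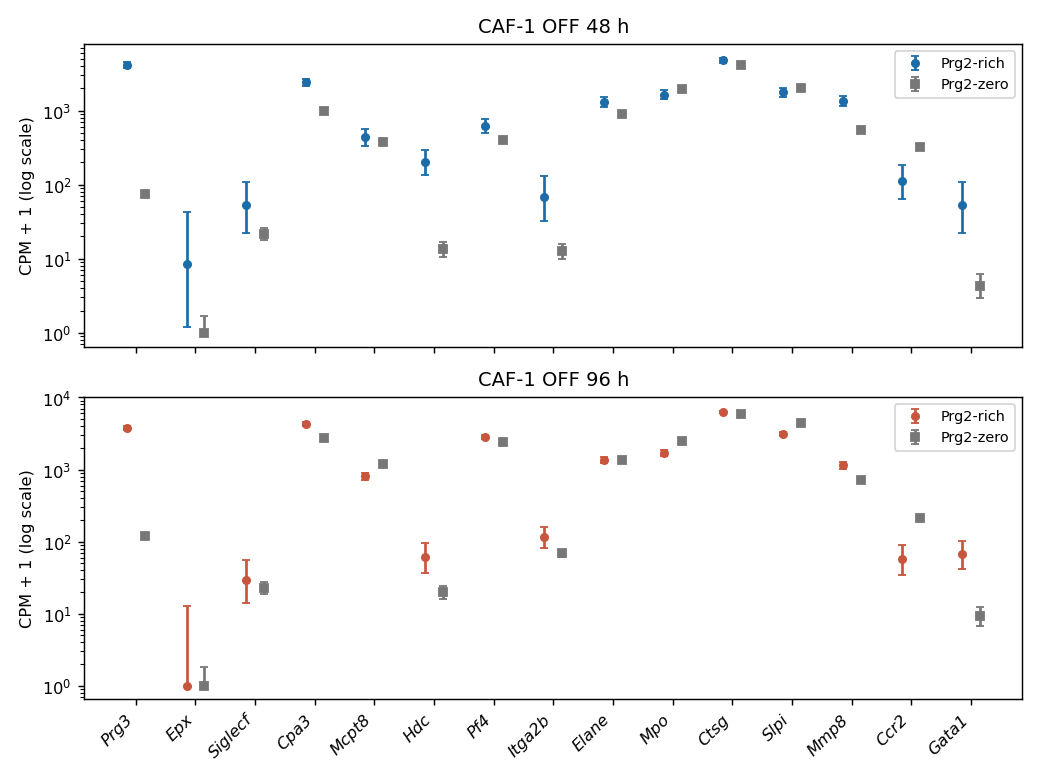
CPM plus 1 (y axis, log scale) of 15 lineage genes (x axis) summed over Prg2-rich cells (coloured circles) and Prg2-zero cells (grey squares) at 48 h (top) and 96 h (bottom); bars are exact 95% Poisson intervals. Prg3, Hdc and Gata1 lie higher in Prg2-rich cells and Ccr2 lower, while Pf4, Elane, Ctsg, Mpo and Slpi lie close together and Epx is at or near the bottom.

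Genes of secretion and storage differed little by size. Of 24 genes of the endoplasmic reticulum, which fold and export secreted proteins, 0 passed 2-fold at either time, and single log2 ratios ran from −0.61 to 0.84 at 48 h and from −0.64 to 0.42 at 96 h, with medians of 0.09 and 0.15. Calr, a folding protein of that compartment, was 1.26-fold and 1.30-fold higher. Of the 16 granule and lysosome genes with a UMI, 1 was higher and 1 lower past 2-fold at 48 h and 0 at 96 h, with medians of 0.30 and 0.28. Cd63, a membrane protein of granules, was 1.78-fold (1.56 to 2.03) and 1.51-fold (1.40 to 1.64) higher, and Srgn, the proteoglycan that binds basic proteins in granules, 1.43-fold and 1.32-fold. The median of all tested genes stood at −0.04 and −0.07 beside these.

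Most mitotic genes had lower values in Prg2-rich cells at 96 h. At this time 24 of 25 G2/M genes lay below 0, with a median log2 ratio of −0.44, a summed level of 3879 against 5109 CPM, and 0 past 2-fold, beside 58.6% of all tested genes below 0. At 48 h 15 of 25 lay below 0, beside 54.2% of all tested genes, the median was −0.17 and the sums were 5182 against 5317 CPM. For 25 S phase genes the sums were 2902 against 3129 CPM and 2438 against 2489 CPM. Interferon response genes summed to 119.99 against 213 CPM at 48 h and 214 against 372 CPM at 96 h. Of 10 p53 targets, 1 was 2-fold higher at each time, Gadd45a at 48 h and Ccng1 at 96 h. Of 15 genes of CAF-1 and other histone chaperones and variants, 0 passed 2-fold in either direction. Of 16 genes picked for their change in CAF-1 OFF cells, 4 were higher and 2 lower past 2-fold at 48 h and 0 and 2 at 96 h. Of the 15 receptors for cytokines, 3 and 1 were at least 2-fold higher and 2 and 0 lower.

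A few genes had ratios that differed most between the times. Hdc had log2 ratios of 3.24 at 48 h and 1.28 at 96 h. Chil3, a chitinase-like protein of myeloid cells, had −2.42 and −0.55, and Psmg1, a proteasome assembly factor, −2.62 and −0.22. Pitpnb, a lipid transfer protein, had 0.67 and −1.42, and Asns, which makes asparagine, 1.05 and −0.92. Apart from Hdc each rests on 0 to 16 UMIs in Prg2-rich cells at 48 h.

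Prg2-rich cells differed among themselves. Elane and Slpi went together, with a Spearman's rho of 0.76 over 22 cells at 48 h and 0.45 over 59 cells at 96 h. Cpa3 and Slpi went apart, at −0.45 and −0.55. In Prg2-zero cells the same pairs stood at 0.73 and 0.64 and at −0.16 and −0.42. These values describe cells that share a library and differ in depth. At 96 h 4 of the 59 cells held no Pf4 and no Cpa3 UMI, against 10 of 760 Prg2-zero cells (6.78%, 1.88% to 16.5%, against 1.32%). This group was picked after its values were seen. Its cells had 1914 to 4204 UMIs in all and held 6 to 181 Prg2 UMIs but few Prg3 UMIs, 10 in all, or 794 against 3882 CPM in the other Prg2-rich cells. Slpi was at 6190.5 against 2982 CPM there, Pglyrp1, an antibacterial granule protein, at 3175 against 614 CPM, and Tyrobp, a signalling adaptor, at 2302 against 552 CPM. Stfa1, a protease inhibitor with near-identical copies, had 24 UMIs, of which 21 were in 1 cell. Cybb, a subunit of the neutrophil oxidase, had 6 UMIs there and 0 in the other 55 cells.

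The same threshold chose 7 cells in the uninduced CAF-1 OFF library. In the HOXA9 OFF arm it chose 22 cells at 0 h, 392 at 48 h and 98 at 96 h. Prg3 was at 6042 CPM in the 7 cells at 0 h and at 7866 (0 h), 7339 (48 h) and 1619 CPM (96 h) in those of the HOXA9 OFF arm. The 23 genes raised in both CAF-1 OFF libraries were read in these HOXA9 OFF cells, which the rule did not use. There 11, 7 and 11 of the 23 were at least 2-fold higher than in Prg2-zero cells at 0, 48 and 96 h, beside 1.54%, 1.49% and 12.7% of all tested genes. Of the 15 lowered genes 10, 3 and 3 were lower past that size, beside 5.59%, 1.77% and 4.25%. Ccr2 was lower in each of the 6 libraries, the 7 cells at 0 h included, with log2 ratios from −1.41 to −2.54. Anxa1 was higher in the 0 h library of each arm and lower in HOXA9 OFF at 48 h (−0.65) and 96 h (−2.64).

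Prg2-rich cells of the arms were set side by side at matched times. At 48 h the 392 HOXA9 OFF cells held 232 Epx UMIs (147 CPM) in 72 cells, against 1 UMI in the 22 CAF-1 OFF cells (7.50 CPM), a ratio of 19.5 (3.47 to 775). At 96 h the 98 HOXA9 OFF cells held 6 Epx UMIs (21.1 CPM) and the 59 CAF-1 OFF cells 0, at least 2.23-fold higher. Ear2 had 111 and 9 UMIs in HOXA9 OFF and 0 in CAF-1 OFF, at least 3.12-fold and 3.34-fold higher. Within HOXA9 OFF, however, Ear2 was lower in Prg2-rich than in Prg2-zero cells. It was at 70.1 against 111 CPM at 48 h and at 31.6 against 84.6 CPM at 96 h. Alox15 was 2.70-fold higher in HOXA9 OFF at 48 h (1.03 to 10.04) and 28.9-fold at 96 h (10.97 to 108). Siglecf was at 93.5 against 52.5 CPM at 48 h, a ratio whose interval holds 1 (0.843 to 4.51), and 5.69-fold higher in HOXA9 OFF at 96 h (2.75 to 13.2).

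Pf4, Cpa3, Elane and Mpo lay higher in the CAF-1 OFF cells at both times, among Prg2-zero cells as well as Prg2-rich cells. In Prg2-zero cells at 48 h, CAF-1 OFF against HOXA9 OFF, Pf4 was at 403 against 1.18 CPM and Cpa3 at 990 against 146. Elane was at 884 against 304 CPM and Mpo at 1922 against 411. At 96 h the values were 2436 against 3.59, 2724 against 0.399, 1374 against 1.60 and 2457 against 1.99 CPM. In Prg2-rich cells Pf4 was 195-fold higher at 48 h (80.1 to 616), against 5 UMIs in HOXA9 OFF. At 96 h it stood at 2826 CPM against 2 UMIs in HOXA9 OFF, a ratio of 402 (111 to 3328). Cpa3 was 2.76-fold higher at 48 h (2.44 to 3.12) and 55.6-fold at 96 h (36.6 to 89.03). Elane was 5.57-fold (4.63 to 6.68) and 54.4-fold higher (26.2 to 136), and Mpo 2.35-fold (2.03 to 2.72) and 9.12-fold (6.87 to 12.3). At 96 h all 7 Elane UMIs of HOXA9 OFF lay in 1 of 98 cells, as did all 53 Mpo UMIs. For each gene that cell held exactly 5 Prg2 UMIs, so both ratios at 96 h depend on 1 cell at the threshold. Prg3 had opposite directions, 1.79-fold higher in HOXA9 OFF at 48 h (1.64 to 1.95) and 2.32-fold higher in CAF-1 OFF at 96 h (2.08 to 2.59). Each side is 1 clone and 1 library a time, so clone and treatment cannot be told apart, and the HOXA9 OFF cells were shallower, with medians of 3934.5 and 2666 UMIs. Before estradiol was withdrawn, the 22 Prg2-rich cells of the HOXA9 OFF arm held 0 Epx UMIs, 3 Pf4 UMIs and 29 Elane UMIs.

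**Figure D5:**
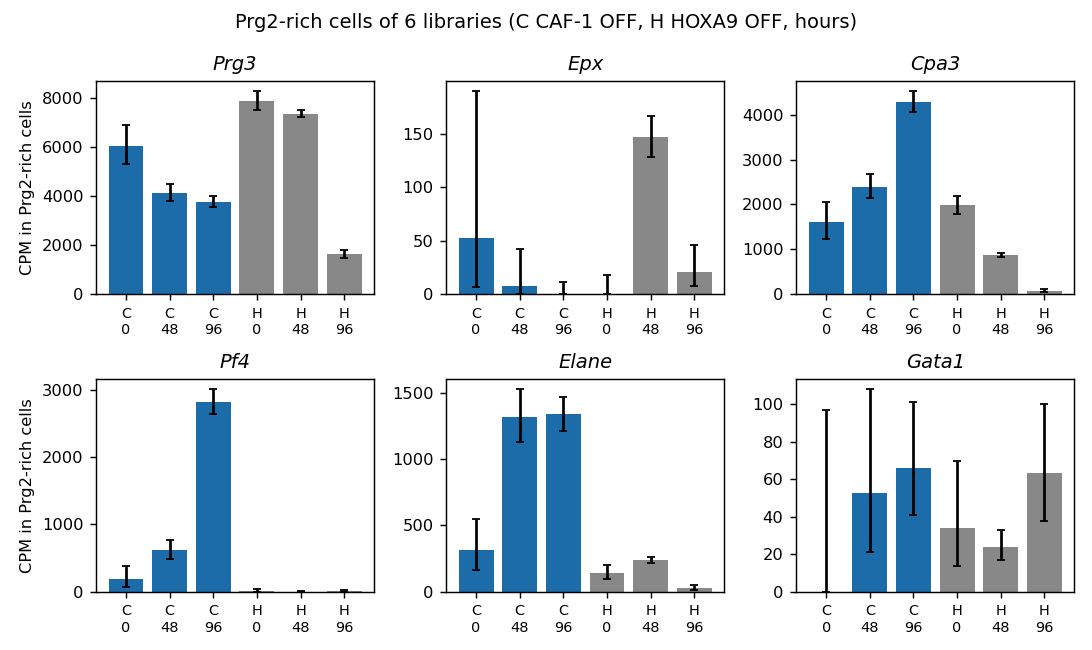
CPM of 6 genes summed over the Prg2-rich cells of each library (y axis, scale differs by panel), with C for CAF-1 OFF (blue), H for HOXA9 OFF (grey) and the hours below; bars are exact 95% Poisson intervals. Pf4 reaches 2826 CPM in CAF-1 OFF at 96 h and Epx 147 CPM in HOXA9 OFF at 48 h, and Prg3 is present in all 6 libraries.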

How the data were processed

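Libraries were made from sorted live cells with 10x Chromium 3′ v2 kits. The authors mapped reads to mm10 with Cell Ranger (3.0.1 in the processing notes, another version in the methods) and deposited whole-number UMI counts per gene and barcode, 7821 barcodes by 27998 genes. Cells with 200 to 6000 genes and at most 10% mitochondrial UMIs were kept, doublets included. Kept cells of a library summed to 3524285 to 5589486 UMIs. Counts were summed over cells and divided by the total (CPM), and a sum of 0 was set to a floor of 3 UMIs for folds. Intervals were 95% (Poisson, Clopper-Pearson and conditional binomial). Of these, only the conditional binomial intervals of ratios were tested on simulated data, which held no spread between cells. Genes named were list members, up to 15 largest rises and falls of at least 2-fold the same way at both times with at least 50 CPM in 1 sum of each library, and the 5 largest gaps between times. Members and lists were chosen with earlier results of these data known. Alternatives covered the pseudocount, minimum level, size, Prg2 threshold, comparison cells, depth, doublets (Scrublet in Scanpy 1.11.5), total and mitochondrial limit. Python 3.11.15, NumPy 2.4.6 and SciPy 1.17.1 were used.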

Additional observations from a re-analysis of the deposited data

Results flagged for a closer look

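Barcodes removed by the quality limits were not part of the comparisons. At 96 h in CAF-1 OFF 4 of 155 removed barcodes held at least 5 Prg2 UMIs (2.58%, exact binomial interval 0.708% to 6.48%), against 1 of 463 (0.216%) in the library at 0 h and 0 of 208 at 48 h. The share at 96 h lay above that of the 0 h library, and the intervals of the 0 and 96 h libraries overlapped. It lay below the 6.48% (4.97% to 8.27%) of kept cells at 96 h, again with overlapping intervals. In HOXA9 OFF the removed barcodes with at least 5 Prg2 UMIs were 8 of 927 (0.863%) at 0 h. There they were 24 of 193 (12.4%) at 48 h and 2 of 3 at 96 h.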

How the results depend on the processing

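No paired analysis was possible because each group is 1 library and no test was made. Counts of genes past 2-fold moved with the settings. At 48 h 127 genes were higher and 234 lower. With a pseudocount of 1 CPM these were 220 and 382, with 50 CPM 21 and 13, with no minimum level 274 and 707, at 1.5-fold 478 and 667, and at 4-fold 13 and 19. With a total without Prg2, mitochondrial and ribosomal protein genes they were 237 and 416, and with a mitochondrial limit of 5% 453 and 661. The higher genes were 210 with at least 10 Prg2 UMIs and 194 against cells with 1 to 4. At 96 h 30 genes were higher and 91 lower. In the same order these were 62 and 221, 8 and 3, 48 and 195, 174 and 445, 5 and 1, 57 and 175, and 202 and 516. The higher genes were 51 with every cell counted equally and 47 against cells with 1 to 4 Prg2 UMIs. The share at 96 h (4.10%) was 6.48% without thinning and 2.77% with at least 10 Prg2 UMIs. With the 5% limit the log2 ratio of Gpr34 at 96 h was −0.45, of Col4a1 at 48 h −0.76 and of Hbb-bt at 96 h −0.31. Of 50 values past 2-fold for named genes, all 50 kept their direction under each other alternative and 46 under the 5% limit, which left 6 and 14 Prg2-rich cells. The values of Gpr34, Col4a1 and Hbb-bt are therefore not the full list of those that did not keep it. Of the same 50, 23 stayed past 2-fold with a pseudocount of 50 CPM, 38 with the 5% limit and 40 against cells with 1 to 4 Prg2 UMIs, and 45 to 50 under each of the others. Leaving out the 5 cells richest in Prg2 or each gene's top cell, and matching times between arms, were chosen after seeing the data. Beyond the fewer cells left by the stricter limits, the cause was not tested.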
